A study of Ovis aries with 6 samples.

Results

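The small leucine-rich proteoglycans are secreted proteins built around a run of leucine-rich repeats. Most carry chains of chondroitin, dermatan or keratan sulfate. They coat collagen fibrils and set how fibrils grow and pack, and several also bind growth factors such as TGF-beta or act on cell-surface receptors. In fat tissue they are made largely by the stromal cells that surround and give rise to adipocytes. The genes described here are DCN, BGN and ASPN of class I, LUM, FMOD and PRELP of class II, and OGN of class III. They were chosen by name, and all 7 were found among the 26425 gene rows of the deposited table, each as a single row.

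The libraries came from sheep cells of the adipose stromal vascular fraction, the mixed fraction of fat tissue that holds adipocyte precursors. In 3 libraries MEOX2, a mesodermal homeobox factor, was overexpressed, and 3 libraries, labelled NC, formed the control group. The sample labels call the cells adipocytes. In the deposited table the columns of both groups are headed pHBLV, the name of a lentiviral vector line, though the labels do not describe the construct. The promoter, the time after transfer, the animals used and any differentiation treatment were not given in the sources used here. Nothing in the labels says whether the 3 libraries of a group came from separate cultures or animals, so p-values cover the spread between these 6 libraries alone, and that spread may be technical.

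Values are FPKM, reads scaled by gene length and by library size. Levels of different genes can be set side by side only as far as the listed gene lengths are right. Between 11772772 and 12230863 reads per library were recovered from the FPKM values. MEOX2 was at 153, 108 and 138 FPKM in the MEOX2 libraries, against 10.8, 10.1 and 9.03 FPKM in NC. The stromal markers PDGFRA, PDGFRB and THY1 were each at 118 FPKM or more in all 6 libraries, PDGFRA at 169 to 179 FPKM with MEOX2 and at 135 to 166 FPKM in NC. Of 2 markers of fat progenitors, DPP4 was at 24.3 to 30.6 FPKM and PI16 at 0.464 FPKM or less in all 6. The adipocyte fatty acid binding protein gene FABP4 was at 68.4 to 86.1 FPKM with MEOX2 and 205 to 255 FPKM in NC, and the adiponectin gene ADIPOQ at 5.92 to 7.99 FPKM with MEOX2 and 34.3 to 39.6 FPKM in NC, while the hormone gene LEP was listed at 0 in every one. No endothelial marker of the 3 in the table reached a mean of 1 FPKM, nor did any of 7 chondrocyte and tendon markers. On the second principal component (22.2% of variance) NC replicate 3 was set off from the rest.

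OGN and BGN fell in the MEOX2 libraries, to mean levels 1.79-fold and 1.35-fold below those of NC. The other 5 genes, DCN, ASPN, LUM, FMOD and PRELP, were not called. All 7 were among the 13121 genes that averaged 1 FPKM or more, of which limma called 2.67% at a Benjamini-Hochberg adjusted p under 0.05, 1.51% as higher and 1.16% as lower. The libraries of both groups did not overlap for 5 of the 7 genes, DCN, LUM and FMOD higher and BGN and OGN lower, against 18.9% of all tested genes in either direction, 9.60% higher and 9.33% lower. The median log2 change of the 7 genes was 0.21, and that of all tested genes was -0.00273. These are bulk libraries, in which fewer cells of a type and less RNA per cell cannot be told apart.

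**Figure D1:**
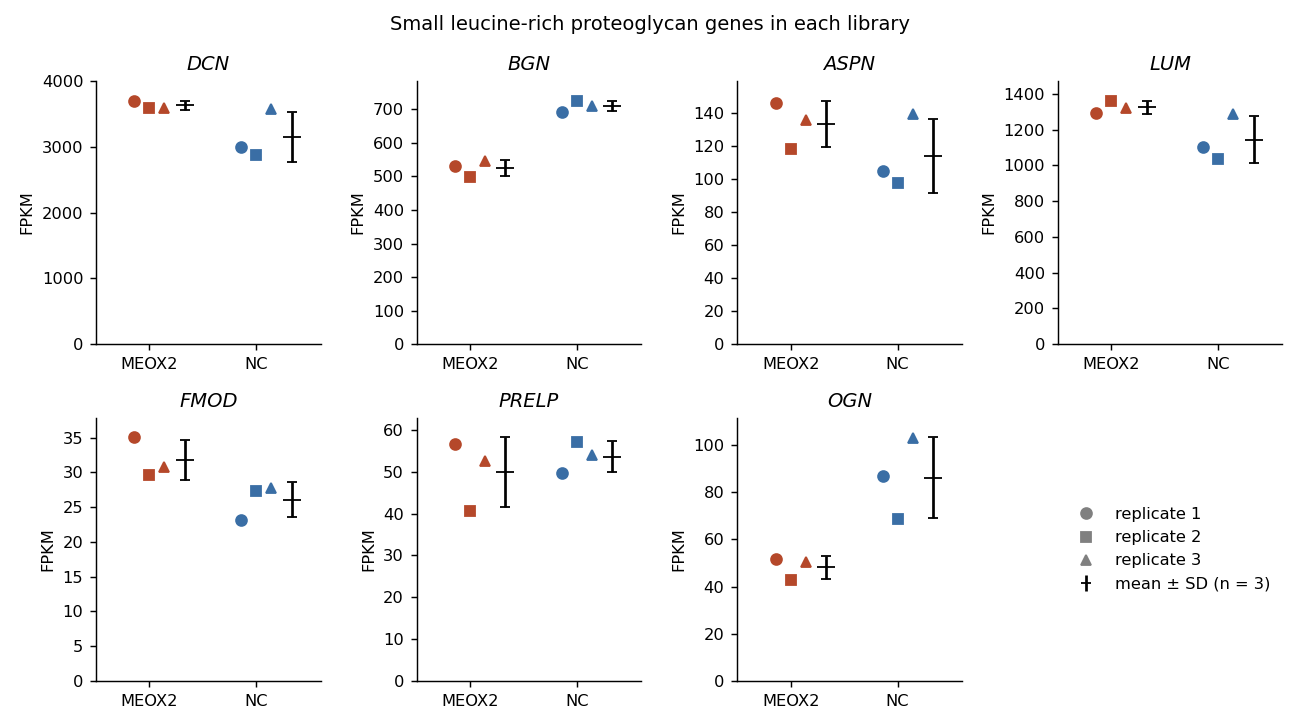
FPKM of each of the 7 genes in each library, with MEOX2 libraries left and NC libraries right in every panel; symbols mark replicates and bars the mean ± SD (n = 3). BGN and OGN are lower in all 3 MEOX2 libraries, while for DCN, LUM and ASPN the highest NC library, replicate 3, lies close to or among the MEOX2 libraries.

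The levels covered a wide range. DCN had the eleventh highest mean of all tested genes, 3389 FPKM over the 6 libraries. In the MEOX2 libraries the order of group means was DCN, LUM, BGN, ASPN, PRELP, OGN and FMOD. PRELP and OGN did not differ beyond their spread there (40.6 to 56.7 FPKM and 42.7 to 51.5 FPKM). In NC, OGN stood before PRELP, and its range overlapped that of ASPN (68.6 to 103 FPKM and 97.5 to 139 FPKM), although ASPN was higher in each of the 3 NC libraries. All other neighbours in either order had ranges that did not overlap. Reads per library ran from 46753 to 59337 for DCN and from 414 to 595 for FMOD, which had the fewest in NC, as OGN had with MEOX2 (478 to 555). For FMOD, counting error alone gives a coefficient of variation of up to 4.91%, against 9.07% between MEOX2 libraries and 9.75% between NC libraries.

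DCN encodes decorin, which wraps collagen I fibrils with a single glycosaminoglycan chain and binds TGF-beta and several receptor tyrosine kinases. The gene (ENSOARG00000015737) lies on chromosome 3, 127427409 to 127458485, minus strand; coordinates here come from the deposited table, whose genome build is not given. Its level was 3704, 3588 and 3596 FPKM in the MEOX2 libraries, against 2991, 2874 and 3582 FPKM in NC. The groups did not overlap, but NC replicate 3 came close to the lowest MEOX2 library, and the other NC libraries were clearly lower. The log2 change was 0.21 (SE 0.10, 95% confidence interval -0.00482 to 0.43) with a limma adjusted p of 0.388. Without NC replicate 3 it was 0.31 with an adjusted p of 0.101, and without NC replicate 2 it was 0.15 (0.616).

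BGN encodes biglycan, the closest relative of decorin, which also binds collagen and TGF-beta and in soluble form acts on Toll-like receptors. BGN (ENSOARG00000007656, chromosome X, 77881463 to 77894344, minus strand) was at 532, 498 and 545 FPKM with MEOX2, against 693, 726 and 710.4 FPKM in NC. All 3 MEOX2 libraries were below all 3 NC libraries, and the spread within each group was small (coefficients of variation 4.65% with MEOX2 and 2.29% in NC). BGN averaged 525 ± 24.4 FPKM with MEOX2 and 710 ± 16.3 FPKM in NC (SD, n = 3 each). On the log2 scale it fell by 0.43 (SE 0.07; limma adjusted p = 0.0150). The call was lost when MEOX2 replicate 2 (0.0571), MEOX2 replicate 3 (0.0529), NC replicate 1 (0.0776) or NC replicate 2 (0.0621) was left out of the limma fit, with log2 changes between -0.46 and -0.40 in all 6 such fits.

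ASPN encodes asporin, which has a stretch of aspartate residues in place of the usual glycosaminoglycan chain and competes with decorin for collagen. ASPN (ENSOARG00000008249, chromosome 2, 28671301 to 28688743, plus strand) was at 146, 118 and 136 FPKM with MEOX2, against 105, 97.5 and 139 FPKM in NC. NC replicate 3 lay among the MEOX2 libraries, so the groups overlapped. The log2 change was 0.24 (SE 0.14, 95% confidence interval -0.07 to 0.55), with a limma adjusted p of 0.520. It was 0.39 without NC replicate 3 (limma adjusted p = 0.112) and 0.14 without NC replicate 2 (0.728), called in neither.

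LUM encodes lumican, a keratan sulfate proteoglycan known for keeping corneal fibrils thin and evenly spaced. LUM (ENSOARG00000015727, chromosome 3, 127384837 to 127388852, minus strand) was at 1292, 1363 and 1321 FPKM with MEOX2, against 1104, 1038 and 1289 FPKM in NC. The values did not overlap, and NC replicate 3 was again the highest NC library, just below MEOX2 replicate 1. The log2 change was 0.22 (SE 0.09, 95% confidence interval 0.01 to 0.43), with a limma adjusted p of 0.337, with 0.31 without NC replicate 3 (limma adjusted p = 0.0933) and 0.15 without NC replicate 2 (0.562).

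FMOD encodes fibromodulin, which shares its collagen binding site with lumican and is abundant in tendon and cartilage. FMOD (ENSOARG00000001637, chromosome 12, 522962 to 529101, minus strand) was at 35.1, 29.6 and 30.7 FPKM with MEOX2, against 23.1, 27.3 and 27.8 FPKM in NC. All 3 MEOX2 values were above the NC values, by a narrow margin. The log2 change was 0.28 (SE 0.10, 95% confidence interval 0.05 to 0.51), with a limma adjusted p of 0.255.

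PRELP carries no glycosaminoglycan chain and has a basic amino terminus that binds heparan sulfate, through which it is thought to tether basement membranes to collagen. PRELP (ENSOARG00000001660, chromosome 12, 649402 to 652454, plus strand) was at 56.7, 40.6 and 52.5 FPKM with MEOX2, against 49.7, 57.1 and 54.1 FPKM in NC. The groups overlapped, and MEOX2 replicate 2 was the lowest of the 6 libraries. The log2 change was -0.11 (SE 0.12, 95% confidence interval -0.39 to 0.17), with a limma adjusted p of 0.788. Without MEOX2 replicate 2 its sign turned, to 0.03.

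OGN encodes osteoglycin, also called mimecan, a small keratan sulfate proteoglycan of bone, cornea and vessel walls. OGN (ENSOARG00000008277, chromosome 2, 28723253 to 28737039, plus strand) was at 51.5, 42.7 and 50.4 FPKM with MEOX2, against 86.8, 68.6 and 103 FPKM in NC. All MEOX2 libraries were below all NC libraries, and NC libraries varied more (coefficients of variation 9.996% with MEOX2 and 19.97% in NC). OGN averaged 48.2 ± 4.82 FPKM with MEOX2 and 86.2 ± 17.2 FPKM in NC (SD, n = 3 each), or 1.79-fold more in NC. The log2 change of -0.81 (SE 0.14) was the largest in size among the 7 genes, with a limma adjusted p of 0.0225. The call was lost without MEOX2 replicate 1 (0.0524), MEOX2 replicate 2 (0.0713), MEOX2 replicate 3 (0.0680) or NC replicate 1 (0.0870) and in the limma fit of unfiltered genes (0.0854), and log2 changes with 1 library left out ran from -0.96 to -0.67.

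OGN and ASPN both lie within CENPP, a kinetochore gene on the opposite strand, and it is not known whether the counting used strand, so CENPP reads and those of either gene might be mixed. CENPP had 84 to 158 reads per library, against 478 to 1145 for OGN and 1328 to 1914 for ASPN. Its level was 9.32, 13.2 and 7.92 FPKM with MEOX2, against 15.2, 12.3 and 13.7 FPKM in NC (limma adjusted p = 0.285). No other of the 7 genes overlapped a row of the table.

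**Figure D2:**
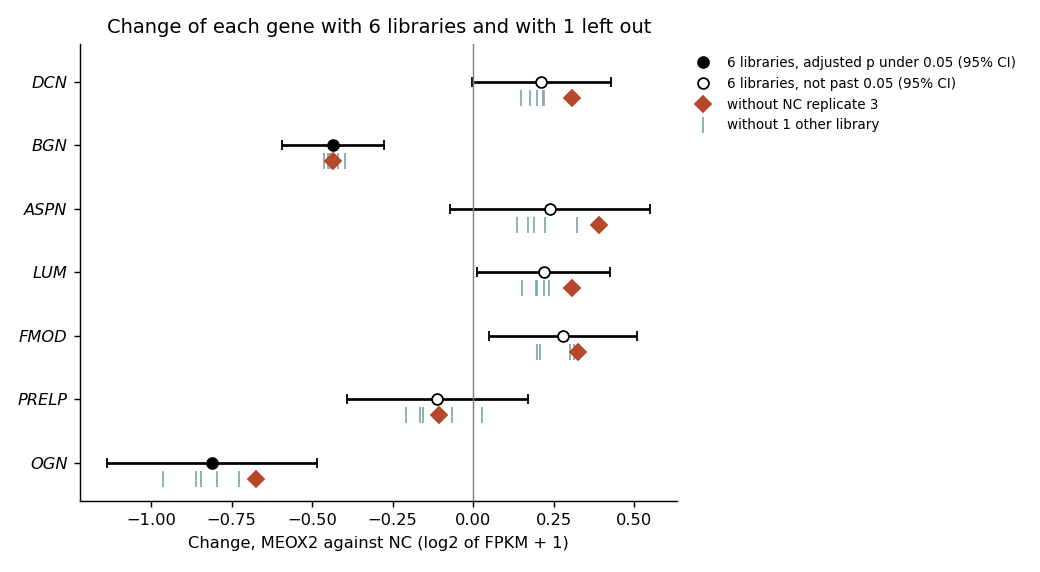
Change of each gene on the log2(FPKM + 1) scale, MEOX2 against NC, from limma. Circles with 95% confidence intervals show the fit of 6 libraries (filled where the adjusted p is under 0.05), and marks below them the fits with 1 library left out; BGN and OGN stay below 0 in every fit, while DCN, ASPN and LUM move furthest up without NC replicate 3.

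BGN and OGN took smaller shares of the family's summed level in every MEOX2 library than in any NC library. Summed over the 7 genes the level was 5818, 5679.5 and 5731 FPKM with MEOX2, against 5052, 4888 and 5905 FPKM in NC, and these groups overlapped because NC replicate 3 had the highest sum of all. The sums averaged 5743 ± 69.9 FPKM with MEOX2 and 5282 ± 546 FPKM in NC (SD, n = 3 each). The 7 genes took 0.717% to 0.743% of all recovered reads in MEOX2 libraries and 0.632% to 0.768% in NC.

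Shares of that sum do not depend on how a library was scaled, but they add to 100% and so cannot move independently. DCN took 63.7%, 63.2% and 62.7% of the summed FPKM with MEOX2, against 59.2%, 58.8% and 60.7% in NC. LUM took 22.2%, 24.0% and 23.0% with MEOX2, against 21.8%, 21.2% and 21.8% in NC. In both genes the MEOX2 shares lay above all NC shares. BGN took 9.15%, 8.76% and 9.51% with MEOX2, against 13.7%, 14.8% and 12.0% in NC, a mean difference of -4.39 percentage points with no overlap. OGN took 0.886%, 0.751% and 0.879% with MEOX2, against 1.72%, 1.40% and 1.74% in NC, also with no overlap. For each of these 4 shares an exact two-sided permutation test over the 6 samples gave p = 0.1, and 3 against 3 samples cannot give a smaller one.

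The shares of the remaining 3 genes overlapped between groups. ASPN averaged 2.32% ± 0.217 with MEOX2 and 2.14% ± 0.192 in NC (SD, n = 3 each). PRELP averaged 0.868% ± 0.136 with MEOX2 and 1.02% ± 0.131 in NC, and FMOD 0.553% ± 0.0434 with MEOX2 and 0.495% ± 0.0548 in NC (SD, n = 3 each).

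**Figure D3:**
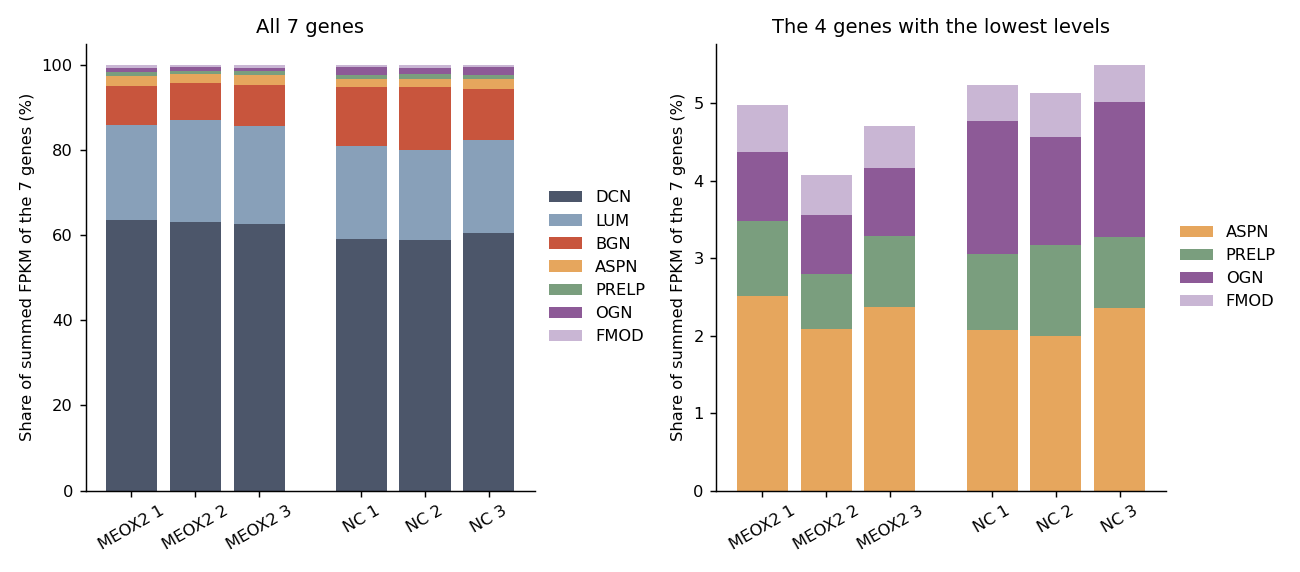
Share of each gene in the summed FPKM of the 7 genes, in percent, as stacked bars with 1 bar per library, MEOX2 left and NC right. The left panel shows all 7 genes and the right panel only the 4 with the lowest levels on a wider scale; the BGN band is thinner in the MEOX2 bars (8.76% to 9.51%) than in the NC bars (12.0% to 14.8%), and so is the OGN band.

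Ratios between 6 pairs of genes within a library describe the same levels without reference to the sum. The pairs were chosen after their values were seen, some setting a lower gene against a higher one, so they lend the shares no support. BGN stood at 14.4%, 13.9% and 15.2% of the DCN level with MEOX2, against 23.2%, 25.2% and 19.8% in NC. OGN stood at 35.3%, 36.1% and 37.2% of ASPN with MEOX2, against 83.0%, 70.4% and 74.0% in NC. In both pairs the groups were far apart, and NC replicate 3, which had high ASPN and high OGN, did not stand out in the second ratio. LUM stood at 34.9%, 38.0% and 36.7% of DCN with MEOX2, against 36.9%, 36.1% and 36.0% in NC, so this ratio overlapped between groups while both levels were higher. FMOD was at 61.9%, 72.9% and 58.6% of PRELP with MEOX2, against 46.6%, 47.8% and 51.3% in NC, again with no overlap. The other 2 ratios overlapped between groups, FMOD at 2.40% ± 0.279 of LUM with MEOX2 and 2.29% ± 0.293 in NC, and ASPN at 3.67% ± 0.334 of DCN with MEOX2 and 3.59% ± 0.261 in NC (SD, n = 3 each).

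**Figure D4:**
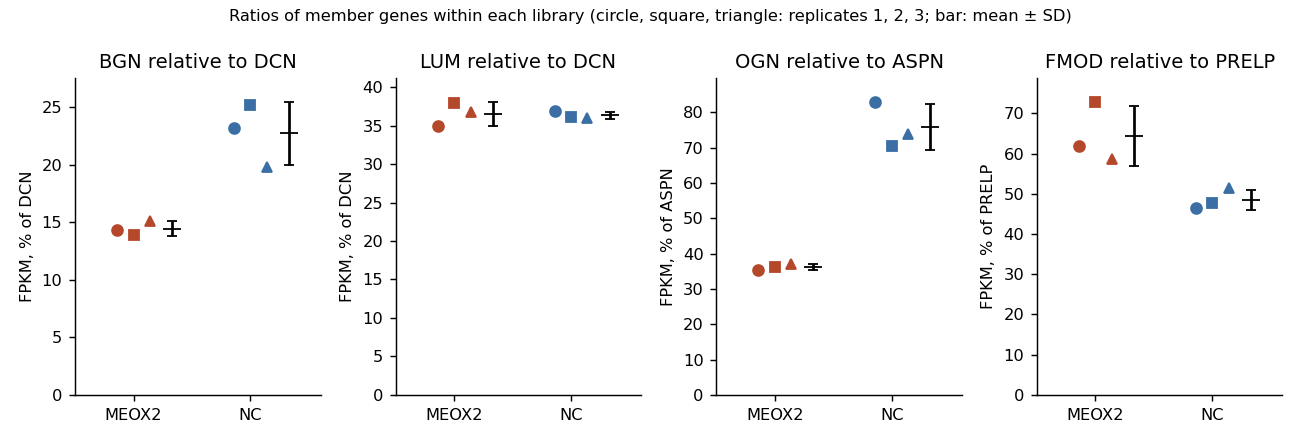
Level of 1 gene as a percentage of another in the same library, for 4 of the 6 pairs, MEOX2 left and NC right, with symbols for replicates and bars for the mean ± SD (n = 3). BGN relative to DCN and OGN relative to ASPN are lower in all MEOX2 libraries, whereas LUM relative to DCN lies between 34.9% and 38.0% in all 6 libraries.

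The genes sit in 3 clusters and 1 single site, a layout that the choice by name did not use. On chromosome 3 LUM and DCN are 38.6 kb apart on the same strand, and KERA, the corneal proteoglycan keratocan, is next to LUM at 36.3 kb. KERA was at 11.7, 11.1 and 13.0 FPKM with MEOX2, against 11.7, 9.13 and 9.70 FPKM in NC, overlapping between groups (limma adjusted p = 0.469). On chromosome 2 the order is ECM2, ASPN, OMD and OGN, all on the plus strand, with 21.7, 15.8 and 11.04 kb between neighbours. ECM2, a matrix protein with similar repeats, was at 43.4, 31.8 and 37.1 FPKM with MEOX2, against 49.9, 40.2 and 56.5 FPKM in NC (limma adjusted p = 0.291). OMD, the bone proteoglycan osteomodulin, was near the detection limit at 0.799 to 1.68 FPKM with MEOX2 and 0.947 to 2.19 FPKM in NC. OGN, at the end of this row, was called lower; ECM2 and OMD had log2 changes of -0.37 and -0.23 and ASPN one of 0.24, none of them called. On chromosome 12 FMOD and PRELP are 120.3 kb apart on opposite strands, and OPTC, 9.55 kb beyond PRELP, had at most 0.162 FPKM in any library.

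Of the 11 other family genes that were looked up, 7 were tested and none was called by limma, while 3 had an unadjusted p under 0.05 in the limma fit, against 13.4% of all tested genes. These 3 were PODNL1, a podocan-like protein (4.02 ± 0.544 FPKM with MEOX2 and 2.78 ± 0.298 FPKM in NC), ECM2, and TSKU, a secreted BMP and WNT modulator (32.7 ± 4.89 FPKM with MEOX2 and 25.9 ± 3.41 FPKM in NC; SD, n = 3 each). None of the 7 was called by limma voom on recovered reads either. EPYC, OPTC, CHAD and NYX did not reach a mean of 1 FPKM.

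Genes that build and sulfate the chains on these proteins mostly were not called. Of 17 tested genes of chondroitin and dermatan sulfate synthesis, 1 rose, none fell and 16 were not called by limma, with a median log2 change of -0.00900. All MEOX2 libraries were above all NC libraries for 2 of the 17, XYLT1 and UST (limma adjusted p of UST = 0.168), against 9.60% of all tested genes. They were below for 3, DSE, DSEL and CHST15, against 9.33%. The gene that rose was XYLT1, the xylosyltransferase that starts the chain on the core protein, at 12.7, 11.2 and 13.98 FPKM with MEOX2, against 6.78, 6.12 and 8.01 FPKM in NC. Its log2 change was 0.77 (SE 0.12, limma adjusted p = 0.0143), and 4 of the 6 fits that omitted a library ended the call, all but those without MEOX2 replicate 2 or NC replicate 3 (limma adjusted p as high as 0.0659), as did the fit of unfiltered genes (0.0534). DSE and DSEL, the epimerases that turn chondroitin into dermatan sulfate, were both lower in every MEOX2 library without being called, DSEL averaging 41.6 ± 1.71 FPKM in MEOX2 and 52.5 ± 3.64 FPKM in NC libraries (SD, n = 3 each; limma adjusted p = 0.0864, and 0.0164 by limma voom). CHST15, a chondroitin sulfotransferase, averaged 0.668 ± 0.170 FPKM in MEOX2 and 1.45 ± 0.102 FPKM in NC libraries (SD, n = 3 each; limma adjusted p = 0.149). It was called without a trend (0.0406) and by limma voom on recovered reads (0.0378), where its log2 change was -1.11, against -0.56 on the log2(FPKM + 1) scale. CHST15 had only 11 to 39 reads per library, for which counting error alone gives a coefficient of variation of up to 30.2%.

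Of 4 tested genes of keratan sulfate synthesis, CHST2 rose and 3 were not called. CHST2, a sulfotransferase acting on N-acetylglucosamine, was at 14.9, 13.1 and 14.6 FPKM with MEOX2, against 6.595, 9.45 and 7.95 FPKM in NC, a log2 change of 0.77 (SE 0.13, limma adjusted p = 0.0173). Its call ended without MEOX2 replicate 1, MEOX2 replicate 3 or NC replicate 1 (limma adjusted p as high as 0.0770) and in the fit of unfiltered genes (0.0633). The galactosyltransferases B4GALT1 and B4GALT4 had log2 changes of -0.15 and 0.02.

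Among 15 tested fibril partners, COL12A1 rose and 14 were not called, with a median log2 change of 0.06. COL12A1, a chain of the fibril-associated collagen XII, averaged 221 ± 32.4 FPKM in MEOX2 and 134 ± 18.2 FPKM in NC libraries (SD, n = 3 each; limma adjusted p = 0.0241, and as high as 0.103 without 1 library, the call being kept only without MEOX2 replicate 2 or NC replicate 3). COL14A1, which also decorates fibrils, had a log2 change of -0.32 (limma adjusted p = 0.133, and 0.0270 by limma voom), and COL1A2, a chain of the collagen I that decorin coats, one of 0.22 (limma adjusted p = 0.278).

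Of 16 ligands and receptors that these proteoglycans bind, C-MET fell and 15 were not called, with a median log2 change of 0.14. C-MET, the hepatocyte growth factor receptor that decorin also binds, was at 1.37, 1.35 and 1.25 FPKM with MEOX2, against 2.54, 2.98 and 2.68 FPKM in NC. Its log2 change was -0.68 (limma adjusted p = 0.0353), and every one of the 6 fits that omitted a library ended the call (limma adjusted p as high as 0.126). For 6 of the 16 genes, TGFB1, TGFB2, TGFBR1, BMP4, WISP1 and CD44, all MEOX2 libraries were above all NC libraries, against 9.60% of all tested genes. BMP4 averaged 2.91 ± 0.482 FPKM in MEOX2 and 1.599 ± 0.146 FPKM in NC libraries (SD, n = 3 each; limma adjusted p = 0.0902, and 0.0494 without a trend and 0.00327 by limma voom). WISP1, a matricellular protein that binds decorin and biglycan, averaged 62.1 ± 7.14 FPKM in MEOX2 and 43.6 ± 7.13 FPKM in NC libraries (SD, n = 3 each; limma adjusted p = 0.0905, and 0.0294 without NC replicate 3 and 0.0132 by limma voom).

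Of 8 tested proteases and helpers that process or cleave these proteins, ADAMTS5 fell and 7 were not called, with a median log2 change of -0.14. ADAMTS5, an aggrecanase that also cleaves biglycan, was at 2.70, 2.68 and 2.75 FPKM with MEOX2, against 5.84, 5.602 and 5.73 FPKM in NC. The groups were far apart for the spread within them, the log2 change was -0.86 (SE 0.10, limma adjusted p = 0.00533), and the call was kept in all 6 fits that omitted a library (limma adjusted p as high as 0.0378). MMP13 and ADAMTS4 had log2 changes of -0.31 and -0.30, both with a limma adjusted p of 0.350. BMP1, which removes the propeptides of several family members, was at 234, 208 and 220 FPKM with MEOX2, against 212, 221 and 198 FPKM in NC.

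A further 14 tested genes encode core proteins of other proteoglycans and the link protein HAPLN3. CSPG4 and SPOCK1 rose and 12 were not called, with a median log2 change of 0.16. All MEOX2 libraries were above all NC libraries for 5 of the 14, against 9.60% of all tested genes. They were below for 2, SRGN and SDC4, against 9.33%. SRGN had a log2 change of -0.60 (limma adjusted p = 0.121) and SDC4 one of -0.29 (limma adjusted p = 0.255). CSPG4, a membrane proteoglycan of pericytes and progenitors, had a log2 change of 0.48 (limma adjusted p = 0.0321), and SPOCK1, a testican, one of 0.46 (limma adjusted p = 0.0499). Both calls ended in each of the 6 fits that omitted a library (limma adjusted p as high as 0.133 for CSPG4 and 0.171 for SPOCK1). SDC2, a heparan sulfate proteoglycan of the cell surface, averaged 77.5 ± 1.45 FPKM in MEOX2 and 63.1 ± 3.74 FPKM in NC libraries (SD, n = 3 each; limma adjusted p = 0.0897). All of these lists were drawn up with earlier results of the same libraries known, and none is independent evidence of a direction.

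**Figure D5:**
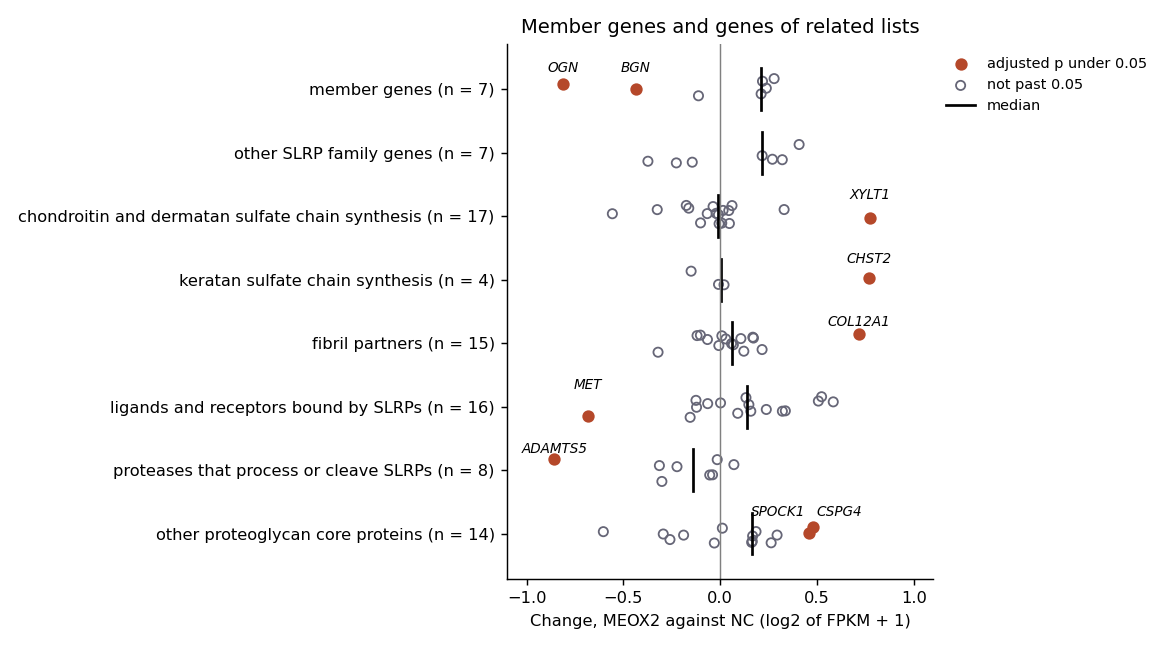
Change on the log2(FPKM + 1) scale, MEOX2 against NC, of the 7 genes and of the tested genes of each related list, 1 point per gene. Filled points have a limma adjusted p under 0.05 and are named, and vertical lines mark list medians; most points lie within 0.5 of 0, and OGN and ADAMTS5 are the lowest.

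The 3 genes whose log2(FPKM + 1) values followed BGN most closely over the 6 libraries were IL8 (Pearson r = 0.998), IGFBP-5 (0.997) and SNED1 (0.995). IL8 is a neutrophil chemokine, IGFBP-5 an insulin-like growth factor binding protein and SNED1 a matrix glycoprotein. All 3 were lower in every MEOX2 library, for example IGFBP-5 at 85.0, 80.6 and 89.0 FPKM with MEOX2, against 129, 143 and 135 FPKM in NC. The limma calls of IL8 and IGFBP-5 were kept in all 6 fits that omitted a library. That of SNED1 (limma adjusted p = 0.0181) was kept only without NC replicate 3 (as high as 0.0775 in the 6 fits). With 6 libraries in 2 groups, these correlations mostly carry the difference between the groups.

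Some markers of other cells differed between the groups as well. Of 7 adipocyte markers 5 were tested, ADIPOQ, FABP4, PLIN1 and CIDEC fell and LPL was not called. The calls of PLIN1 and CIDEC ended in each of the 6 fits that omitted a library (limma adjusted p as high as 0.0872 and 0.0958). The summed level of the adipocyte list was 118 to 141 FPKM with MEOX2 and 284 to 339 FPKM in NC. Of 5 smooth muscle and pericyte markers 2 were tested. CNN1 rose (limma adjusted p = 0.0127, and 0.0615 without MEOX2 replicate 3), and MYH11 averaged 5.63 ± 0.338 FPKM with MEOX2 and 5.47 ± 0.277 FPKM in NC (SD, n = 3 each; limma adjusted p = 0.935). The list summed to 72.6 to 82.8 FPKM with MEOX2 and 51.4 to 57.5 FPKM in NC, of which CNN1 made up 66.5 to 75.6 FPKM with MEOX2 and 45.2 to 51.4 FPKM in NC. None of the 7 tested fibroblast and progenitor markers was called by limma (2, PDGFRA and CD34, had an unadjusted p under 0.05), and limma voom called none either. CD34, a marker of progenitors and endothelium, averaged 0.642 ± 0.270 FPKM in MEOX2 libraries, none of which overlapped the NC libraries at 1.37 ± 0.199 FPKM (SD, n = 3 each; limma adjusted p = 0.223). The summed level of that list was 16134 to 18002 FPKM with MEOX2 and 15281 to 17623 FPKM in NC. Most of that sum was COL1A1 (8673 to 11333 FPKM over all libraries) and COL3A1 (5764 to 6905 FPKM), so it says little about the other markers. Leukocyte markers summed to 8.30 to 10.9 FPKM with MEOX2 and 11.6 to 12.6 FPKM in NC, with PTPRC at or near 0. Limma called neither of the 2 tested, CD68 (adjusted p = 0.400) and CD163 (0.170), and limma voom called 1. CD68 carried most of that sum and overlapped between groups, at 6.63 to 9.37 FPKM with MEOX2 and 8.90 to 9.84 FPKM in NC. CD163 did not overlap, at 1.33 to 1.40 FPKM with MEOX2 and 2.01 to 2.80 FPKM in NC. The part of these shifts in the levels of OGN and BGN was not tested.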

How the data were processed

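RNA from 6 sheep samples was extracted with TRIzol and made into libraries with the NEBNext Ultra kit, per the labels' protocols. The submitters' processing notes name HISAT2 2.0.5, DESeq2 1.20.0, featureCounts 1.5.0-p3, CASAVA 1.8 and fastp without roles; which genome build, annotation and strand setting were used is not given in the sources used here. The authors deposited 1 table of FPKM values. Multiplied by the listed gene length, 100% of nonzero values came out as whole multiples of a fixed step in each library (within 0.001 of a read), which gave back the reads. The deposited values imply library sizes of 0.967 to 1.02 times the recovered totals. Of the 7 listed gene lengths 6 are multiples of 3, so untranslated ends may be missing from them, and levels compared between genes rest on these lengths.

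Genes averaging 1 FPKM or more were fitted on the log2(FPKM + 1) scale by limma 3.58.1 under R 4.3.3 (lmFit and trended eBayes, no covariates), with Benjamini-Hochberg adjustment over all 13121 genes and a threshold of 0.05; such log2 changes understate those of low genes. The fit was tested on simulated reads. Shares and ratios were computed per library and tested with exact permutation tests (scipy 1.17.1). Chi-square per gene between libraries of the same group was 3.62 to 11.8 (sampling noise alone gives about 1), so none was counted as a repeat of another. The members and lists were chosen with earlier results of these data known. Named genes were the 7 members, MEOX2, in each related list the called genes and those with the smallest p up to 3, and the 3 genes most like the member with the smallest p; further genes were chosen after their values were seen. MET was matched to the table as C-MET, and 8 symbols of the related lists and 3 marker symbols were not matched. As alternatives, the pseudocount, filter, scaling and variance model were changed, and the fit was repeated by limma voom with trimmed-mean scaling on recovered reads, with a replicate block and without each library in turn.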

Additional observations from a re-analysis of the deposited data

How the results depend on the processing

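OGN and BGN kept their negative sign in every fit run. With 1 library left out the log2 change of BGN ran from -0.46 to -0.40 and that of OGN from -0.96 to -0.67, and the number of the 7 genes called from 0 to 2, against 2 with 6 libraries. Such fits have fewer samples; the cause of lost calls was not tested. Without a filter on low genes OGN was not called (-0.81, limma adjusted p = 0.0854), 1 of the 7 was, and 194 genes were called in all, against 350. Limma voom called 573 genes, OGN (adjusted p = 1.30e-04) and BGN (6.55e-04) among them, and leaving out 1 library gave 117 to 276. PRELP ran from -0.209 to 0.0265 and B4GALT4 from -0.0473 to 0.0651 with 1 library left out.

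On recovered reads instead of FPKM the difference in the share of OGN was -0.54 percentage points, against -0.78. With DCN left out of the sum the differences were -8.58 points for BGN, 9.20 for LUM, 0.281 for FMOD, -1.74 for OGN and 0.9999 for ASPN. DCN held 58.8% to 63.7% of the sum, so every other share is larger without it. The summed FPKM was 1.05 to 1.16 times that of NC with 1 library left out.

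With the replicate number as a block both calls were kept (limma adjusted p = 0.0102 for OGN and 0.0475 for BGN) and 242 genes were called; those of C-MET (0.0892), CSPG4 (0.0742), SPOCK1 (0.0980) and CIDEC (0.0671) ended. The call of SPOCK1 also ended with either other pseudocount, with rescaling to a fixed sum, without a filter and without a trend (limma adjusted p from 0.0510 to 0.0985), that of COL12A1 without a filter (0.0855) or a trend (0.0536), that of CSPG4 without a filter (0.0653) or a trend (0.0523), and those of PLIN1 (0.0519) and SNED1 (0.0533) without a filter. Deviations of same-numbered libraries from their group means correlated at -0.07, 0.02 and -0.00417 over the tested genes. Those of differently numbered libraries ran from -0.0854 to 0.0858. The labels do not say whether the numbers pair the libraries, and such low correlations cannot exclude it.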
